A study of Mus musculus with 137 samples.

Results

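The comparison set 5 crypt libraries from mice that drank water with 5 ppm hexavalent chromium, Cr(VI), for 7 days against 5 crypt libraries from mice at 0 ppm for the same time. These were 10 of the 71 crypt libraries of the series, which also holds 66 villus libraries. They were taken by their labels. Of the 21450 genes on the assay, 19020 had a probe that passed the filter on low counts and was tested. The exposed libraries came from mice 286, 287, 288, 289, and 290, and the control libraries from mice 46, 47, 48, 49, and 50. All of the mice were female wildtype B6C3F1 animals, a hybrid laboratory strain, and the chromium was supplied as sodium dichromate dihydrate (SDD) in drinking water taken at will. The duodenum had been fixed in formalin and embedded in paraffin, and the crypt layer was scraped from mounted sections, so that each library holds RNA of a tissue region with all of its cell types. RNA was read by TempO-Seq, in which neighboring detector oligonucleotides are ligated on a transcript, amplified, and sequenced, and a gene may have several probes. Samples taken after 7 and 90 days of exposure are called day 8 and day 91, and the series also holds Cr(VI) concentrations of 0.1, 1.4, 20, 60, and 180 ppm.

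The crypt is the pit at the base of each intestinal villus, where stem cells divide, Paneth cells release antimicrobial peptides, and new cells move up to become absorptive enterocytes. Cr(VI) is a strong oxidant that cells take up through anion carriers and reduce. Glucocorticoids and mineralocorticoids are adrenal hormones that enter cells, bind the receptors encoded by Nr3c1 and Nr3c2, and switch on genes such as Tsc22d3 and Sgk1. In the intestine these hormones are known to regulate ion transport and to restrain inflammation.

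Total counts ran from 2943846 to 4759008 in the control libraries and from 1705310 to 4384314 at 5 ppm, and the difference in mean was within the spread between libraries (two-sided exact permutation p = 0.571). From 14967 to 20053 probes were detected in controls and from 17380 to 19269 at 5 ppm. Of the 26365 probes that passed the filter on low counts, 2249 had no count in any of the 5 control libraries and 2606 had none at 5 ppm, within the 608 to 3051 seen over the 14 crypt groups of the series. Levels below are counts per 1000000 counts of a library (CPM), scaled by the trimmed mean of M-values (TMM).

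A library in each group stood apart from the others. The control library of mouse 49 had a summed level of 22 enterocyte and villus genes of 90733.5 CPM, where the other 4 controls had 36669.3 to 52350.2 and the 9 villus libraries of the 0 and 5 ppm mice at day 8 had 58433.2 to 111250.8. Its sum of 13 Paneth cell products was 2666.7 CPM against 10006.9 to 36346.1 in the other controls, and its sum of 36 DNA replication genes was 652 CPM against 1192.5 to 1385.2. The library of mouse 289, at 5 ppm, had 14249.3 CPM of the enterocyte and villus genes against 43542.6 to 68674.5 in the other 4, and 5433.2 CPM of the Paneth products against 18142.9 to 30998.5. Its DNA replication genes summed to 2554.4 CPM against 1130.3 to 1388.7, and its B and plasma cell genes to 2968.5 CPM against 787 to 1216.8. Pancreatic acinar genes, which mark another organ, summed to between 33.6 and 46476.5 CPM in controls and between 359 and 26084.9 at 5 ppm. Crypt stem cell and Wnt target genes were present in all 10 libraries, at sums of 411 to 1220.8 CPM in controls and 490 to 1060.4 at 5 ppm, and the 9 villus libraries had 219 to 1019.5. In such bulk samples, fewer cells of a type and less RNA per cell cannot be told apart. Results are therefore given with all 10 libraries, and many of them also without the libraries of mice 49 and 289.

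**Figure D1:**
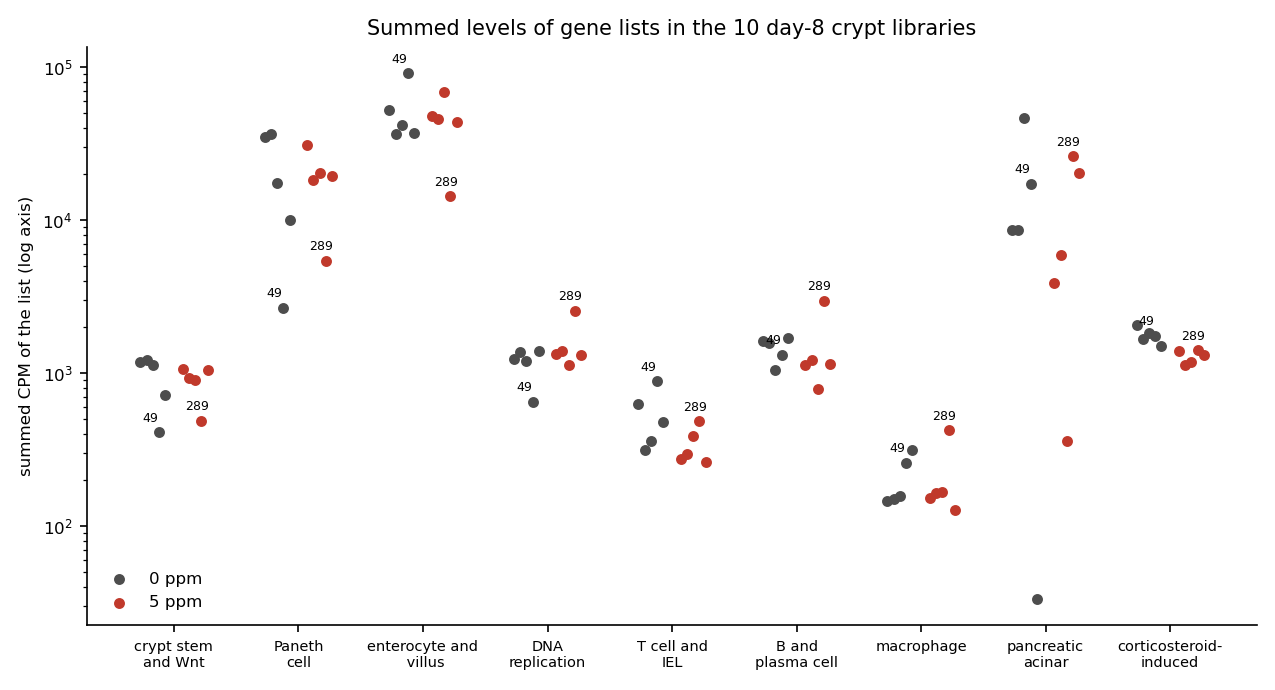
Summed CPM (log axis) of gene lists in each of the 10 day-8 crypt libraries, with 0 ppm in gray and 5 ppm in red and the libraries of mice 49 and 289 numbered. IEL stands for intraepithelial lymphocyte. The sums of the 2 groups overlapped in every list shown except the corticosteroid list, which ran from 1506.5 to 2075.6 CPM in controls and from 1120.9 to 1412.3 at 5 ppm. That list holds Tsc22d3 and Sgk1 and was drawn up with earlier results of these data known, so its separation is a description only.

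Few differences at 5 ppm after 7 days were larger than the spread between mice allowed for in the test. Of 19020 genes tested, 1 passed an adjusted p of 0.1 (edgeR quasi-likelihood test, Benjamini-Hochberg adjustment over the 26365 probes), the glucuronosyltransferase Ugt2b5, which was higher at 5 ppm. That is 0.00379% of the probes. At an unadjusted p under 0.05 there were 3178 probes, 1344 higher (5.1%) and 1834 lower (6.96%), and the median log2 fold change over all probes was 0.00. The 2 groups did not overlap in 81 probes that were higher at 5 ppm (0.307%) and in 66 that were lower (0.25%).

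The number of genes called depended on the test. The newer form of the edgeR fit, which adjusts the residual deviance of small counts, called 4 genes (0.0152% of probes), adding Tsc22d3, Sgk1, and Ctnnd1, each lower at 5 ppm (0.0114%). DESeq2 called 29 genes, 10 higher and 19 lower, which was 0.158% of the 18941 probes it adjusted (0.0528% higher and 0.106% lower). A fit of these 10 libraries alone, in which 15345 probes passed the filter, gave 0 calls and a smallest adjusted p of 0.136. Of those 15345 probes, 484 had an unadjusted p under 0.05. Without mice 49 and 289, Ugt2b5 was still the gene called (edgeR adjusted p = 0.0226).

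**Figure D2:**
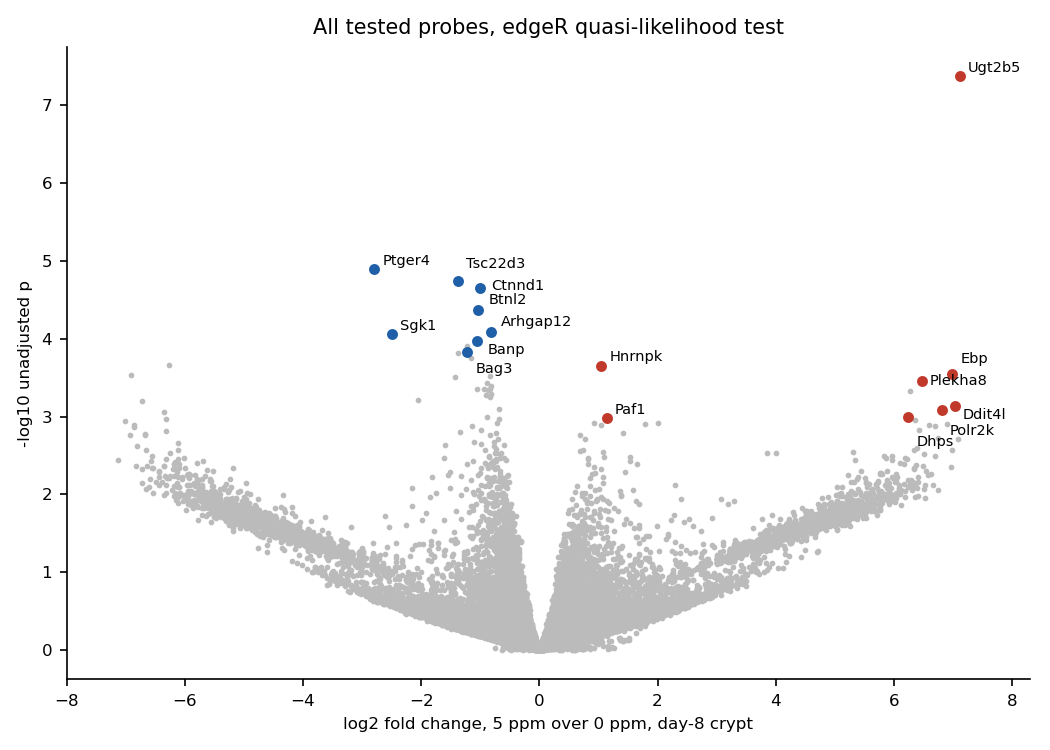
Each gray point is 1 of the 26365 probes tested in day-8 crypts, by its log2 fold change at 5 ppm over 0 ppm (x axis) and the -log10 of its unadjusted p (y axis). Colored points are Ugt2b5 and other probes among the 8 in each direction with the smallest p. Ugt2b5 stands at a log2 fold change of 7.11, and Ptger4 and Tsc22d3 lead the lower side at -2.80 and -1.38.

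Ugt2b5 encodes a UDP-glucuronosyltransferase, an enzyme that couples glucuronic acid to steroids and foreign compounds so that they can be excreted. The gene lies on the minus strand of chromosome 5 (chr5:87124960-87140318, GRCm38). Its probe 31589 gave 0 CPM in control mice 46, 47, 48, and 49 and 0.19 CPM in mouse 50, a total of 1 count. At 5 ppm it gave 6.97, 20.0, 6.93, 11, and 11.6 CPM in mice 286 to 290, a total of 221 counts, and the groups did not overlap. The ratio of the pooled levels was 230, with a 95% interval from 40.8 to 9117.5 that covers counting error only. The fitted log2 fold change was 7.11 ± 1.22 (SE, n = 5 and 5; edgeR quasi-likelihood adjusted p = 0.00112), a value that depends on the prior count. Leaving out each library in turn kept it under 0.1, with adjusted p from 0.00111 to 0.0252 in edgeR, but the newer form lost the call without mouse 287 (edgeR adjusted p = 0.114), and the fit of the 10 libraries alone did not call it.

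The other Ugt2b5 probe did not show that difference. Probe 72307 gave 99.1, 92.6, 48.9, 110, and 66.2 CPM in controls and 101, 87.2, 128, 53.6, and 156 CPM at 5 ppm, with a log2 fold change of 0.33 ± 0.363 (adjusted p = 1 in edgeR). It was also the more abundant by far, and the 2 probes summed gave no call for Ugt2b5. Among the 20 UDP-glucuronosyltransferases on the assay, read by the probe with the highest total in each, 19 were tested and 0 were called. Ugt2b36, a close relative, had 4.19, 1.42, 1.54, 0, and 4.17 CPM in controls and 7.50, 8.62, 17.9, 14.8, and 7.67 CPM at 5 ppm (log2 fold change 2.29 ± 0.846, edgeR adjusted p = 0.378), and its groups did not overlap. The most abundant member in controls, Ugt2b34, ran from 405 to 699 CPM in controls and from 275 to 690 at 5 ppm. Ugt1a1, the bilirubin-conjugating enzyme, ran from 231 to 425 and from 143 to 429 CPM. The median log2 fold change of the 19 was -0.04. Ugt2b genes are near copies of each other, and the probe sequences were not used here, so which of them probe 31589 reads was not tested.

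Ptger4, the EP4 receptor for prostaglandin E2 (chr15:5206661-5244187, minus strand), was the lowest-p gene among those lower at 5 ppm. Its probe 66621 gave 8.09, 9.71, 25.9, 4.32, and 13.7 CPM in controls and 0, 0, 3.87, 1.28, and 3.02 CPM at 5 ppm, with no overlap. The log2 fold change was -2.80 ± 0.617 and the adjusted p 0.148 (edgeR). A separate probe of the gene, 29247, gave 44.0, 51.6, 50.5, 54.5, and 35.3 CPM in controls and 6.97, 20.2, 27.5, 16.1, and 28.6 CPM at 5 ppm. Those groups did not overlap either (log2 fold change -1.23 ± 0.31, edgeR adjusted p = 0.366). A further probe, 68007, was at or near 0 in most libraries, 0 to 4.99 CPM in controls and 0 to 3.26 CPM at 5 ppm. With probes summed per gene, Ptger4 was the gene called (edgeR adjusted p = 0.0577). Without mice 49 and 289 probe 66621 had a log2 fold change of -2.93 (edgeR adjusted p = 0.267), and it was called without mouse 49 alone or mouse 288 alone.

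**Figure D3:**
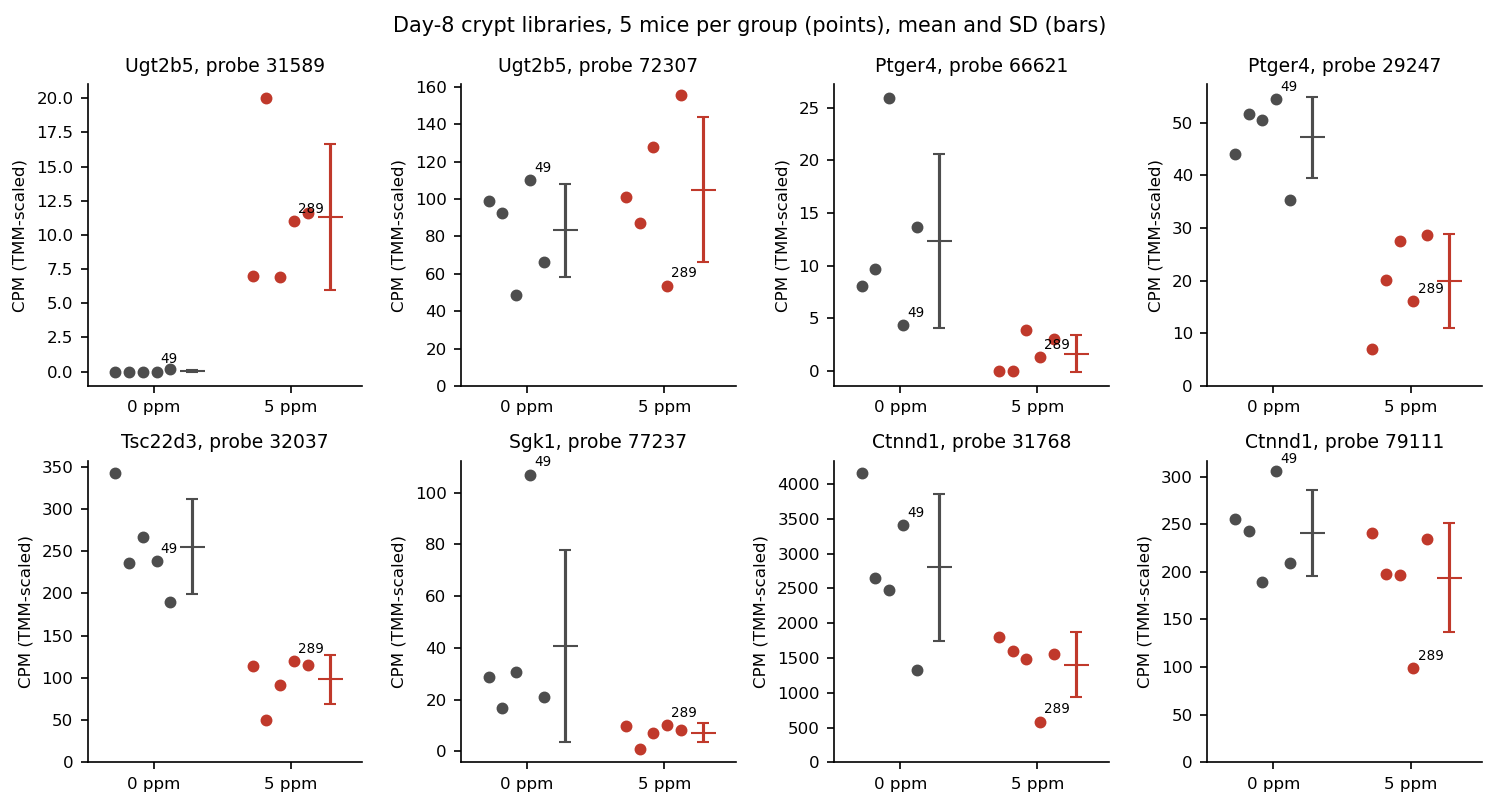
TMM-scaled CPM of 8 probes in the 5 control (gray) and 5 exposed (red) day-8 crypt libraries, each point a mouse, with the mean and SD beside the points and mice 49 and 289 numbered. The groups separated in Ugt2b5 probe 31589, in both Ptger4 probes, in Tsc22d3, and in Sgk1, and overlapped in Ugt2b5 probe 72307 and in both Ctnnd1 probes.

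Tsc22d3 encodes GILZ, a leucine zipper protein that glucocorticoids induce and that dampens inflammatory transcription (chrX:140539528-140600659, minus strand). Its probe 32037 gave 342, 236, 267, 238, and 190 CPM in controls (mean 255 ± 56.2 SD, n = 5) and 114, 50.5, 91.7, 120, and 115 CPM at 5 ppm (98.2 ± 28.8, n = 5). Every exposed library was below every control library. The log2 fold change was -1.38 ± 0.309, with an adjusted p of 0.148 in the edgeR quasi-likelihood test, 0.0844 in its newer form, and 0.0382 in DESeq2. Without mice 49 and 289 it was -1.48 (edgeR adjusted p = 0.267). With 1 library left out, the newer form kept the call in 2 of 10 fits, those without control mouse 47 or 50, and its adjusted p reached 0.325 in edgeR. Its other probe, 29858, ran from 9.71 to 29.4 CPM in controls and from 3.07 to 17.7 at 5 ppm (log2 fold change -0.70 ± 0.715).

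Sgk1 encodes a kinase, induced by both classes of adrenal steroid, that keeps sodium channels and other transporters at the cell surface (chr10:21882184-21999903, plus strand). Its probe 77237 gave 28.8, 16.6, 30.8, 107, and 20.9 CPM in controls and 9.64, 0.986, 6.93, 10.2, and 8.36 CPM at 5 ppm. The groups did not overlap, and mouse 49 was far above the other controls. The log2 fold change was -2.50 ± 0.617 with all libraries (adjusted p = 0.329 in edgeR, 0.0632 in its newer form) and -1.92 without mice 49 and 289 (edgeR adjusted p = 0.533). In the newer form the call was lost without mouse 49, 287, 288, or 290.

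The steroid receptors bind DNA at copies of AGAACA that face each other. The 250 bases before each annotated start were therefore searched for AGAACA and its reverse complement TGTTCT in the RefSeq promoter windows on GRCm38.p6. At least 1 copy was present in 3 of the 6 Sgk1 windows, in 1 of the 3 Tsc22d3 windows, and in 0 of the windows of Ptger4, Ctnnd1, and Ugt2b5 (1, 2, and 1 windows). Among all 32851 windows 16.1% held a copy. The paired form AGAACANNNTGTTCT, which overlaps both searched motifs, was in 3 of all windows (0.00913%), and 1 of these belongs to Sgk1. That Sgk1 window (chr10:21993640-21993889, plus strand) and the Tsc22d3 window with a copy (chrX:140600523-140600772, minus strand) are printed 5′ to 3′ with the motif in capitals, because both genes are known corticosteroid targets whose groups did not overlap.
Sgk1: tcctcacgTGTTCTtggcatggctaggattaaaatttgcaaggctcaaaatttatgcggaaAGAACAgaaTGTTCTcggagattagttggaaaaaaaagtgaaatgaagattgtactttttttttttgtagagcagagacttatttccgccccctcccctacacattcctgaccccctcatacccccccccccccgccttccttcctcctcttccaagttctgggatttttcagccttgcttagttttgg
Tsc22d3: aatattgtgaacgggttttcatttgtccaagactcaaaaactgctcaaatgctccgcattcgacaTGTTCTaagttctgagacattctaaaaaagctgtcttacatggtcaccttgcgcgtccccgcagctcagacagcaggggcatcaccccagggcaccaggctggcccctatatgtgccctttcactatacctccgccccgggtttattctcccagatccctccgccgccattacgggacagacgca
The Sgk1 copies began 242, 189, and 180 bases before the start and the Tsc22d3 copy 185 bases before it. A match describes these letters and was not tested as a binding site.

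The corticosteroid list holds 29 genes, most of them induced by the hormones and some that sense, make, or convert them, and 28 were tested. None was called by the edgeR quasi-likelihood test, and 2 (Sgk1 and Tsc22d3) were called lower in its newer form. At an unadjusted p under 0.05, 10 were lower and 1 was higher, where over all 18998 genes with 1 probe each 7.49% were lower and 5.2% higher. The median log2 fold change was -0.52 against 0.00 for all genes, and 4 members had groups that did not overlap, all lower, against 0.268% of all genes. Without mice 49 and 289 there were 8 lower and 1 higher, where of all 18998 genes 1064 were lower and 760 higher. The list median was then -0.69 against -0.04. The summed level of the list was 2075.6, 1663.1, 1831.0, 1758.2, and 1506.5 CPM in controls and 1385.1, 1120.9, 1187.1, 1412.3, and 1322.1 CPM at 5 ppm. Every exposed library was below every control library in that sum, including those of mice 49 and 289. Against the same day-8 controls, the list median in crypts was -0.49, -0.4, -0.93, -0.58, and -0.6 at 0.1, 1.4, 20, 60, and 180 ppm. All genes had medians from -0.06 to 0.00 at those concentrations, so a lower list median was not particular to 5 ppm. The list was drawn up with earlier results of these data known, so its direction is not independent evidence.

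Metabolic targets of the hormones were among the members with separated groups. Pdk4, a kinase that turns off glucose oxidation, had 37.7, 23.5, 12.3, 30.6, and 27.7 CPM in controls and 8.57, 8.13, 2.65, 4.09, and 6.27 CPM at 5 ppm (log2 fold change -2.16 ± 0.806). Angptl4, an inhibitor of lipoprotein lipase, had 50.6 to 106 CPM in controls and 8.69 to 46.1 CPM at 5 ppm (-1.60 ± 0.515). Both are also targets of the fatty acid receptors of the PPAR family. Of the 21 tested genes of PPAR and fatty acid oxidation, these 2 were the only members at an unadjusted p under 0.05, both lower. Over all genes 7.49% were lower at that p. The list median was -0.07. That median was 0.24 without mice 49 and 289. Errfi1, a brake on the EGF receptor, ran from 53.9 to 201 CPM in controls and from 21.2 to 78.2 CPM at 5 ppm (-1.34 ± 0.414), with overlap. Cebpb, a transcription factor of acute responses, ran from 88.8 to 246 and from 61.3 to 164 CPM (-0.52 ± 0.235).

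Genes that sense or convert the hormones varied. Hsd11b1, which regenerates active glucocorticoid, gave 0, 2.83, 3.39, 8.64, and 5.31 CPM in controls and 0 CPM in all 5 exposed libraries. Its pooled level was at least 25.3-fold lower at 5 ppm, against a floor of 3 counts over the group, and its adjusted p was 0.378 (edgeR). That bound leaves out the spread between mice, and the groups overlapped, since control mouse 46 was also at 0 CPM. Hsd11b2, which inactivates glucocorticoid, ran from 20.9 to 49.3 CPM in controls and from 14.6 to 65.4 CPM at 5 ppm (log2 fold change 0.12 ± 0.508). The glucocorticoid receptor Nr3c1 had a log2 fold change of 0.02 ± 0.241, and the mineralocorticoid receptor Nr3c2 one of -0.64 ± 0.324. Other induced genes overlapped between the groups. Fkbp5, a receptor co-chaperone, had 96.5 to 241 CPM in controls and 56.0 to 168 CPM at 5 ppm (-0.48 ± 0.4). Klf9 had a log2 fold change of -0.08 ± 0.86 and Zfp36, an mRNA decay factor, one of -0.17 ± 0.368. Lcn2 and Cyp11b1 were lower and Map3k6 higher at an unadjusted p under 0.05, each on few counts.

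**Figure D4:**
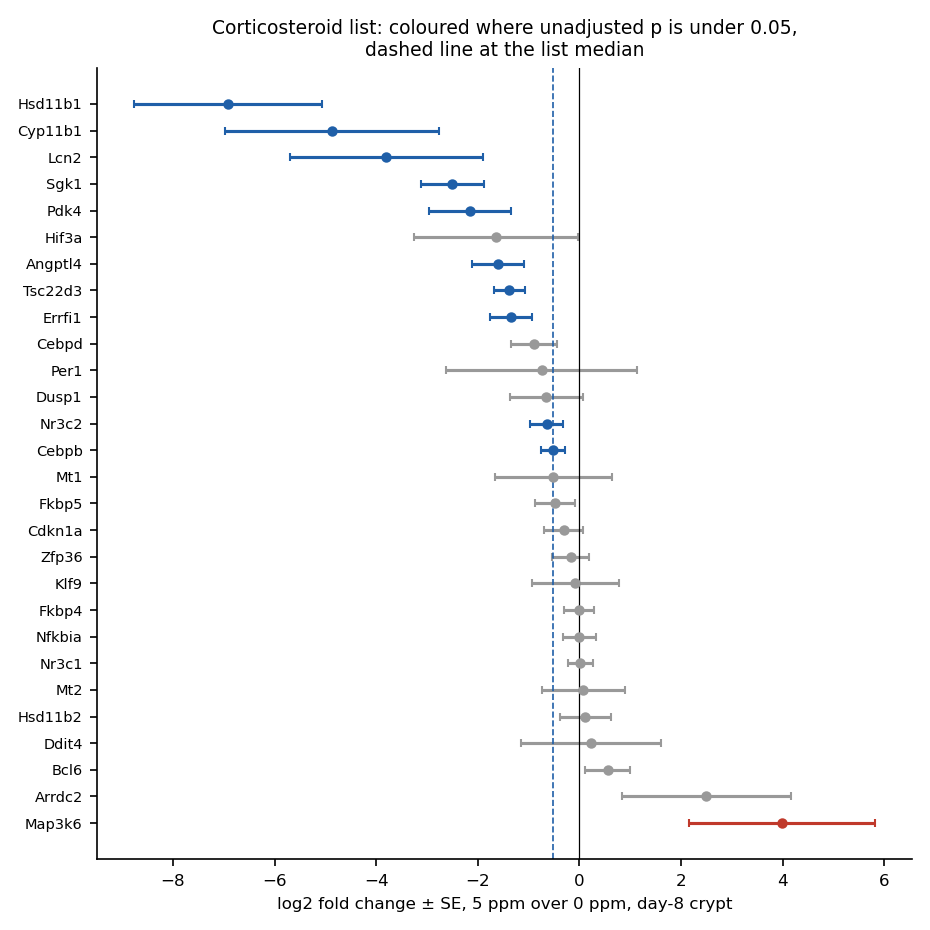
Log2 fold change ± SE (x axis) at 5 ppm over 0 ppm in day-8 crypts for the 28 tested genes of the corticosteroid list. Members at an unadjusted p under 0.05 are blue (10 lower) or red (1 higher), and the dashed line marks the list median of -0.52.

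Partners of SGK1 were described from a list of 16 genes, of which 15 were tested, 0 were called, and 1 was lower at an unadjusted p under 0.05, where 7.49% of all genes were lower. The list's median was -0.27, and -0.06 without mice 49 and 289, where 0 of the 15 were lower at that p. That member was Foxo3, a transcription factor that the kinase holds out of the nucleus, with 117 to 184 CPM in controls and 82.8 to 121 CPM at 5 ppm (-0.57 ± 0.21). The epithelial sodium channel subunits Scnn1a, Scnn1b, and Scnn1g stayed at or under 4.45 CPM in all 10 libraries. Of 20 circadian clock genes 0 were called. At an unadjusted p under 0.05, 1 was higher (Dbp) and 2 were lower (Bhlhe40 and Clock), where 5.2% of all genes were higher and 7.49% lower. Dbp, an output gene of the clock, had 13.4 to 40.9 CPM in controls and 23.2 to 165 CPM at 5 ppm (1.46 ± 0.622). The 165 was the value of mouse 288. Bhlhe40, a clock repressor, had 72.0 to 121 and 47.3 to 72.8 CPM (-0.72 ± 0.267), and Clock had 57.5 to 230 and 42.9 to 133 CPM (-0.61 ± 0.303). The clock list had a median of -0.40 over its 20 members, and -0.51 without mice 49 and 289.

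Ctnnd1, p120-catenin, which holds cadherins at cell junctions (chr2:84600071-84650765, minus strand), differed by probe. Probe 31768 gave 4151.6, 2649.2, 2483.6, 3403.4, and 1324.7 CPM in controls and 1797.1, 1602.4, 1488.2, 586, and 1554.4 CPM at 5 ppm. Control mouse 50 lay among the exposed libraries, and mouse 289 was below all others. The log2 fold change was -1.0 ± 0.226 with an adjusted p of 0.148 in edgeR and 0.0844 in its newer form, and -0.72 without mice 49 and 289 (edgeR adjusted p = 0.533). Without control mouse 50 the same probe was called (edgeR adjusted p = 0.0154). The call of the newer form was kept in 3 of 10 fits with 1 library left out, those without mouse 47, 50, or 286, and its adjusted p reached 0.617 in edgeR. Probe 79111 ran from 189 to 306 CPM in controls and from 98.9 to 241 CPM at 5 ppm (-0.31 ± 0.186), and probe 31807 from 6.26 to 30.6 and from 10.6 to 25.3 CPM (-0.28 ± 0.38). Of the 18 adherens junction genes, 0 were called, 3 were lower at an unadjusted p under 0.05 (Ctnnd1, Ctnnd2, and Pkp4) against 7.49% of all genes, and the median was -0.26. Of these genes, only Ctnnd1 was lower at that p without mice 49 and 289, against 1064 of all 18998 genes. The list median was then -0.14. E-cadherin, Cdh1, had a median of 99.7 CPM in controls and 120 CPM at 5 ppm (0.35 ± 0.253).

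Genes tied to intraepithelial lymphocytes, the T cells that sit between enterocytes, were described with Btnl2, a gene of the epithelium around them. Btnl2 was chosen for its small p in these libraries. Of the 12 tested genes of the lymphocyte list, which leaves out Btnl2, 1 (Nkg7) had separated groups and was lower, against 0.268% of all genes. Btnl2, a butyrophilin-like protein of the gut epithelium (chr17:34354822-34369495, plus strand), gave 416, 233, 226, 615, and 235 CPM in controls and 140, 206, 214, 92.5, and 189 CPM at 5 ppm. Its groups did not overlap, with mouse 49 highest and mouse 289 lowest, and its log2 fold change went from -1.03 ± 0.244 (edgeR adjusted p = 0.229) to -0.56 without those mice (edgeR adjusted p = 0.533). Nkg7, a granule protein of cytotoxic cells, had 34.1, 17.4, 27.1, 58.5, and 16.7 CPM in controls and 9.11, 5.42, 4.69, 3.32, and 14.6 CPM at 5 ppm (-2.05 ± 0.584, edgeR adjusted p = 0.378). Granzyme A, Gzma, ran from 80.3 to 384 and from 17.9 to 109 CPM (-1.43 ± 0.387). Without mice 49 and 289 the log2 fold changes of Nkg7 and Gzma were -1.49 and -0.88. Cd3d, Cd3e, and Cd3g, which encode chains of the T cell receptor complex, had log2 fold changes of -0.25, 0.86, and -0.48. Of 12 genes of these cells 0 were called and 2 (Gzma and Nkg7) were lower at an unadjusted p under 0.05, also without mice 49 and 289, with medians of -0.36 and -0.39. Over all genes 7.49% were lower with all 10 libraries, and 1064 of 18998 without those mice. Their summed level was 315 to 882 CPM in controls and 263 to 483 CPM at 5 ppm.

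The remaining probes among the 8 lowest p values on the lower side belonged to Banp, Bag3, and Arhgap12. Banp, a DNA-binding nuclear protein, gave 115, 107, 99.1, 77.5, and 112 CPM in controls and 41.3, 38.4, 47.5, 71.8, and 45.5 CPM at 5 ppm, with no overlap (log2 fold change -1.06 ± 0.265, edgeR adjusted p = 0.36). Without mice 49 and 289 its log2 fold change was -1.32 (edgeR adjusted p = 0.224), and the newer edgeR form then called it. Bag3, a co-chaperone of HSP70, ran from 74.0 to 232 CPM in controls and from 24.7 to 103 CPM at 5 ppm by probe 31318 (-1.22 ± 0.312), and by probe 58221 up to 324 CPM in controls and from 75.1 to 141 CPM at 5 ppm (-0.83 ± 0.234). Arhgap12, a GTPase-activating protein, had 98.3 to 161 and 35.5 to 91.7 CPM by probe 69412 (-0.82 ± 0.201, and -0.65 without mice 49 and 289). It overlapped by its other probe. Of the 8 probes, 6 had groups that did not overlap, against 0.25% of all probes, a description only, since the 8 were chosen by p in the same libraries. Adjusted p values of these probes in edgeR ran from 0.148 to 0.37.

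On the higher side, 6 of the 8 probes with the smallest p after Ugt2b5 were at 0 counts in all 5 control libraries. Hnrnpk, an RNA-binding protein of splicing and translation, was measured well in both groups, at 59.6, 67.2, 48.9, 32.2, and 68.5 CPM in controls and 77.7, 127, 101, 169, and 94.3 CPM at 5 ppm. Its log2 fold change was 1.04 ± 0.274 with all libraries (edgeR adjusted p = 0.378) and 0.71 without mice 49 and 289. The other Hnrnpk probe overlapped, with 72.1 to 140 and 104 to 160 CPM. Paf1, a subunit of the elongation complex of RNA polymerase II, had 7.65 to 33.0 CPM in controls and 37.5 to 67.4 CPM at 5 ppm, with no overlap. Its other probe also overlapped, with 46.4 to 83.8 and 50.6 to 83.9 CPM. The probes at 0 in controls included those of Ebp (a sterol isomerase), Plekha8, Ddit4l (an inhibitor of mTOR signaling), Polr2k, and Dhps. Of these 5, only Dhps had counts in all 5 exposed libraries, from 0.612 to 5.11 CPM. Its pooled level was at least 16.6-fold higher, against a floor of 3 counts over the control group, a bound that leaves out the spread between mice. The second probes of Ebp and Polr2k had counts in every control library, with log2 fold changes of -0.47 ± 0.435 and -0.30 ± 0.807.

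Proliferation, stem cell, and Paneth programs had 0 genes called. The 36 DNA replication genes had 30 log2 fold changes above 0 and a median of 0.31, and the 22 mitosis genes had 21 above 0 and a median of 0.46. Without mice 49 and 289 these counts were 15 and 13 and the medians -0.09 and 0.05. Rpa1, which coats single-stranded DNA, was the replication gene at an unadjusted p under 0.05, with 24.6 to 44.7 CPM in controls and 31.1 to 158 CPM at 5 ppm, where 158 was the value of mouse 289. The 18 stem cell and Wnt target genes had a median of -0.09, with Olfm4 at 60.2 to 375 CPM in controls and 68.2 to 293 CPM at 5 ppm, and Lgr5 at 0 to 6.29 and 2.04 to 6.97 CPM. Among 13 Paneth products the median was 0.03, and the lysozyme gene Lyz1 ran from 335 to 4389 CPM in controls and from 934 to 3322.6 CPM at 5 ppm. Enterocyte and villus genes had 18 of 22 log2 fold changes below 0 and a median of -0.22, and 16 of 22 above 0 and a median of 0.29 without mice 49 and 289.

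Stress programs likewise had 0 genes called. Of 23 p53 targets and DNA damage genes, 11 were above 0 and 12 below, with a median of -0.10, and -0.08 without mice 49 and 289. Pmaip1, the apoptosis gene Noxa, had 64.5 to 168 CPM in controls and 45 to 73.6 CPM at 5 ppm (-0.91 ± 0.371). Of the 23, 1 was lower at an unadjusted p under 0.05, against 7.49% of all genes, and 0 without those mice. A different member had groups that did not overlap and was higher at 5 ppm, against 0.279% of all genes. The 25 Nrf2 genes had a median of 0.04, and 0.21 without mice 49 and 289, with Gclm, a glutathione synthesis subunit, at 35.7 to 88.8 and 15.1 to 67.4 CPM. Of the 25, 2 were lower at an unadjusted p under 0.05, against 7.49% of all genes. Without those mice 0 were lower and 1 was higher. Metal ion and zinc homeostasis genes had a median of -0.23 over 23 members, and 0.00 without mice 49 and 289, with the metallothioneins Mt1 and Mt2 at log2 fold changes of -0.51 ± 1.15 and 0.08 ± 0.815. Hypoxia response, xenobiotic metabolism, and interferon response genes had medians of -0.19, -0.10, and -0.28, and of -0.08, 0.24, and -0.02 without mice 49 and 289. Among 15 unfolded protein response genes the median was -0.08, with 2 lower and 1 higher at an unadjusted p under 0.05. Over all genes 7.49% were lower and 5.2% higher at that p. Of the 15, 1 had groups that did not overlap and was lower, against 0.268% of all genes. That member was Herpud1, an adaptor of protein degradation at the endoplasmic reticulum. It gave 144, 126, 168, 202, and 172 CPM in controls and 55.2, 52.7, 95.4, 101, and 84.1 CPM at 5 ppm (-1.06 ± 0.294, edgeR adjusted p = 0.378), and -1.08 without mice 49 and 289. Of 79 cytosolic ribosomal protein genes 63 were above 0, with a median of 0.20, and the median without those mice was 0.02.

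The study singled out 9 genes in crypts at low concentrations over both days, from data that include these libraries. They are therefore not independent evidence here. It gave Egr3, Slc34a2, and Slc5a8 as higher and the rest as lower. By the edgeR quasi-likelihood test 0 of the 9 were called, 4 were lower at an unadjusted p under 0.05, against 7.49% of all genes, and their median log2 fold change was -1.64. There were 3 lower, with a median of -1.74, without mice 49 and 289, against 1064 of all 18998 genes lower. Slc10a2, a bile acid carrier, gave 8.99, 2.02, 0, 6.32, and 1.90 CPM in controls by probe 29328 and 0 CPM in all 5 exposed libraries (edgeR adjusted p = 0.378), while its other probe was at 0 in all libraries but mouse 290, at 1.63 CPM. Saa1, an acute-phase protein, and Ppy, a pancreatic hormone, were also at 0 CPM in every exposed library and at most 3.89 and 4.32 CPM in controls. DESeq2 called all 3 of these genes. Reg2 ran from 0 to 151 CPM in controls and from 0 to 24.9 CPM at 5 ppm, Slc34a2 from 0 to 12 and from 0 to 4.93 CPM, and Egr3 from 0 to 7.78 and from 0 to 19.2 CPM. Muc6, a gastric and Brunner's gland mucin, gave 68.0 CPM in control mouse 46 and at most 7.20 CPM in any other of the 10 libraries. Slc5a8 had 0 counts in all 10 and so could not be called, though it counts among the 9. Ctnnd1 is described above.

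The same 5 control libraries served every other concentration of day 8, so the levels are set side by side without a test of likeness. The calls made ran from 0.00379% of probes at 0.1 and 1.4 ppm to 0.125% at 20 ppm, 1.33% at 60 ppm, and 3.05% at 180 ppm. In order of concentration from 0 ppm, with 5 ppm as the fourth value, Tsc22d3 (probe 32037) averaged 255 ± 56.2, 172 ± 66.7, 152 ± 24.8, 98.2 ± 28.8, 93.8 ± 18.4, 62.3 ± 16.4, and 74.5 ± 13.6 CPM. Its adjusted p passed 0.1 at 20, 60, and 180 ppm (0.0129, 5.18e-06, and 1.99e-05, edgeR). Sgk1 averaged 40.7, 13.4, 9.99, 7.23, 2.73, 1.55, and 3.58 CPM in the same order, and was called at the same 3 concentrations (edgeR adjusted p = 0.000369, 1.81e-06, and 6.89e-05). Btnl2 averaged 345, 273, 224, 168, 144, 103, and 56.5 CPM and was also called from 20 ppm on. Ptger4 probe 29247 took another course, at 47.2, 43.1, 27.1, 19.9, 32.5, 46.9, and 38.7 CPM, with its lowest mean at 5 ppm. Ugt2b5 probe 31589 averaged 0.038 CPM at 0 ppm and between 1.6 and 11.3 CPM at the 6 other concentrations, and was called at each of them. The newer form lost that call at 0.1, 1.4, and 180 ppm (edgeR adjusted p = 0.143, 0.638, and 0.315).

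**Figure D5:**
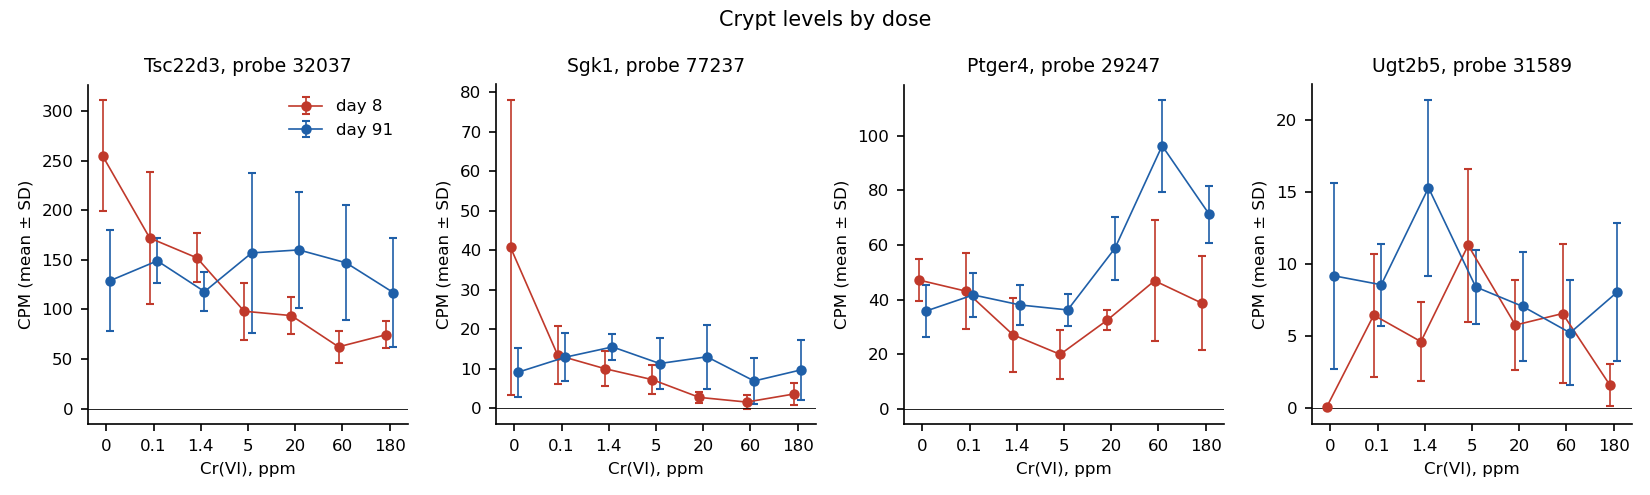
Mean ± SD of CPM in crypts by Cr(VI) concentration (x axis, ppm, evenly spaced) at day 8 (red) and day 91 (blue) for 4 probes. At day 8 Tsc22d3 fell from 255 CPM at 0 ppm to 62.3 at 60 ppm and Sgk1 from 40.7 to 1.55, changes that passed the test at 60 ppm, while the day-91 means at 0 ppm were 129 and 9.10 CPM.

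The control group of day 8 lay at an end of the 14 crypt groups for many of these probes. Its mean was the highest of the 14 for Tsc22d3, Sgk1, Btnl2, Banp, and Arhgap12, and the lowest for Ugt2b5 probe 31589 and all 8 of the other probes on the higher side. Control crypts of day 91 averaged 129 ± 50.6 CPM of Tsc22d3, 9.10 ± 6.21 of Sgk1, and 9.18 ± 6.48 of Ugt2b5 probe 31589. Of the 61 crypt libraries outside this comparison, 4 were at 0 for that Ugt2b5 probe. For Ptger4 the exposed group had the lowest mean of the 14 by probes 66621 and 29247, and by probe 68007 its mean was number 9 from the highest. Because these probes were chosen for their difference from the same controls, those positions are a description. A difference between batches of animals or libraries could not be told apart from exposure, since each group was a set of mice of its own.

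At day 91 the same concentration called 0 genes in the crypt (edgeR quasi-likelihood test), where 2001 probes were higher (7.59%) and 570 lower (2.16%) by unadjusted p under 0.05. Log2 fold changes at day 91 were 0.28 for Tsc22d3 and 0.31 for Sgk1, and -0.12 for Ugt2b5 probe 31589, and none of the 3 was called. The difference of the effect between days was tested as a contrast of the fit, and it was called for 1 gene, Ugt2b5 (difference, day 91 minus day 8, -7.24, edgeR adjusted p = 0.0604, or 0.00379% of probes). That call was lost in 10 of the 20 fits that left out a library. For Tsc22d3 the difference was 1.66, for Sgk1 2.81, for Banp 1.6, and for Bag3 1.93, each with an adjusted p of 0.168, and the newer edgeR form called Bag3 and Banp. The corticosteroid list had a median of -0.16 at day 91 against 0.11 for all genes.

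In villi of the same mice 83 probes were called at 5 ppm and day 8 (0.315%), 14 higher (0.0531%) and 69 lower (0.262%). Tsc22d3 averaged 327 ± 73.3 CPM in 5 control villi and 98.3 ± 30.9 CPM in 4 exposed villi, a log2 fold change of -1.73 that passed the test (adjusted p = 0.012, edgeR). Sgk1 averaged 97.7 ± 48.3 and 40.5 ± 14.2 CPM (-1.27, edgeR adjusted p = 0.267). The corticosteroid list had a median of -0.54 in villi against -0.12 for all genes, with 9 lower and 1 higher at an unadjusted p under 0.05, where over all genes with 1 probe each 13.1% were lower and 5.8% higher. Ugt2b5 probe 31589 was measured in control villi, at 0 to 9.60 CPM, and Ptger4 probe 66621 averaged 6.31 CPM in control and 11.6 CPM in exposed villi. The difference between villus and crypt in the effect of 5 ppm was called for 0 genes in edgeR (smallest adjusted p = 0.118), and 2846 probes had an unadjusted p under 0.05, with the difference above 0 in 3.43% of all probes and below 0 in 7.36%. DESeq2 called 61 genes for that difference. For Tsc22d3 the difference was -0.36 (edgeR adjusted p = 0.984).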

How the data were processed

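The authors aligned TempO-Seq reads with Bowtie, after bcl2fastq 2.17.1.14, and deposited raw counts per probe for each library, of which 10 are compared here. The genome build behind the probes and the sequences of the probes were not used here. Counts were tested in R 4.3.3 with edgeR 4.0.16 (TMM, filterByExpr, quasi-likelihood fit in its older form with a trended dispersion) across all libraries in 28 groups, with Benjamini-Hochberg adjustment over 26365 probes, a threshold of 0.1 and two-sided p values. Groups followed the labels, and the 2 compared here held 5 mice each. A gene with several probes counts once when any of them passes. Lists were read by the probe with the highest total per gene. Intervals used a confidence level of 95% and a floor of 3 counts.

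Alternatives were DESeq2 1.42.0, the newer edgeR form, other scalings, filters, covariates and sets of libraries, and each library left out in turn. Fits with libraries left out kept the dispersion trend of the full fit in the older edgeR form only. The comparison, the gene lists and the tests were chosen with earlier results of these data known. The genes named were those called, the 8 probes with the smallest p in each direction, up to 3 members of each list with the smallest p under 0.05, and those the study named in low-dose crypts. Other members were chosen as examples after their values were seen. Crypt and villus libraries with the same mouse number came from the same animal. Over 9 such pairs and 15094 probes, deviations from the group means correlated at a median of 0.124, from -0.0157 to 0.447, against a median of -0.0321 for 32 other pairs. Promoter windows came from RefSeq on GRCm38.p6. A gene that the rule names is not reported here.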

Additional observations from a re-analysis of the deposited data

Results flagged for a closer look

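Of 64 groups of values examined, 9 held a library far from the rest of its group. Chance gives about 1 in 20 for independent groups. These groups share libraries, and some probes were chosen by p, so the count was not tested against chance. Among controls, the summed Brunner's gland genes were at 68 CPM in mouse 46 against 0 to 6.07 CPM in the others. Sgk1 was at 107 CPM in mouse 49 against 16.6 to 30.8 CPM, and Ugt2b5 probe 31589 was at 0.19 CPM in mouse 50, a single count, against 0 in the other 4. With the others at 0, any count would be flagged there.

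At 5 ppm, mouse 289 was the library that stood apart in each case. Its stem cell and Wnt target sum was 490 CPM against 900 to 1060.4 in the others, its B and plasma cell sum 2968.5 CPM against 787 to 1216.8, and its macrophage sum 423 CPM against 127 to 168. Ctnnd1 probe 31768 was at 586 CPM in this library against 1488.2 to 1797.1, Arhgap12 at 35.5 CPM against 79.3 to 91.7, and Banp at 71.8 CPM against 38.4 to 47.5. The part of cell makeup in these values was not tested.

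The effect of 5 ppm on Ugt2b5 probe 31589 differed between days, with a log2 difference, day 91 minus day 8, of -7.24 (edgeR adjusted p = 0.0604). The call was lost in 10 of the 20 fits that left out a library and with probes summed per gene, and the other Ugt2b5 probe, 72307, had a difference of -0.03.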

How the results depend on the processing

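In the day-8 crypt comparison, 1 gene was called, and DESeq2 size factors, no filter, the enterocyte or acinar covariate, and the fit without mice 49 and 289 gave the same count. A mean count of at least 10 gave 2 genes (with Ptger4), the 36 crypt libraries of day 8 gave 2 (with Tsc22d3), total count as a covariate gave 3 (with Ctnnd1 and Ptger4), the newer edgeR form 4, DESeq2 29, and the 10 libraries alone 0. Probes summed per gene called Ptger4 in place of Ugt2b5. Leaving out each library gave 1 to 2 genes, 2 without control mouse 49 or 50 or mouse 288. In the newer form, alternatives chosen after seeing the data gave 2 genes (Ugt2b5 and Banp) without mice 49 and 289, and from 0 to 51 with 1 library left out: 51 without control mouse 50, 7 without 47, 3 without 48, 286, or 289, 2 without 46 or 290, 1 without 49 or 288, and 0 without 287, where Ugt2b5 had an adjusted p of 0.114.

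For the difference between days, DESeq2 called 184 genes over the 4412 probes it adjusted, the newer form 3, and summed probes 0. Leaving out a library gave 0 to 7. The count was 7 without day-91 control mouse 8, 5 without control mouse 50, 3 without day-91 mouse 245, and 2 without mouse 286. It was 0 without mouse 46, 47, 48, 49, or 287, or day-91 mouse 6, 241, 243, 244, or 246. For the difference between villus and crypt, DESeq2 called 61, DESeq2 size factors in edgeR 7, a mean count of at least 10 gave 6, and summed probes 6. Leaving out a library gave 0 to 91, with 91 without the villus library of mouse 289, 8 without the villus library of mouse 49, 3 without that of mouse 50, 2 without that of mouse 286, and 1 without the crypt library of mouse 47 or 286 or the villus library of mouse 47. With the mouse as a replicate block, 0 genes were called (456 probes at an unadjusted p under 0.05), as without the block in the same 18 libraries (601 probes), so that the pairing changed no call.

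Of 1304 values of the named probes under these alternatives, 1269 kept their direction and side of the threshold, 28 moved past it, 1 fell short of it, and 6 changed sign. The sign changed for Ebp (-0.10) and Ugt1a10 (0.40) with probes summed, for Egr3 with the enterocyte covariate (-0.89) and over single libraries left out (-0.15 without mouse 289, up to 1.49), for Muc6 (-5.73 to 1.71, the latter without control mouse 46), and for Slc34a2 without mice 49 and 289 (0.10). The cause was not tested. Probes at 0 in a whole group limit what depth can show.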
